A study of Mus musculus with 9 samples.

Results

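The regions described here are the 500 kb windows along mouse chromosome 6, counted from position 0 of GRCm38, in which at least 1 gene of the deposited tables starts. There were 288 such windows on chromosome 6, of 5156 in the whole genome, and they held the starts of 3131 genes. The reads of all genes starting in a window were summed in each of 9 RNA-seq libraries. No read was counted in 34 of the windows, 70 others had too few reads to be tested, and 184 passed the filter on low counts, of 3308 in the genome. The windows were drawn to see whether a shift of chromosome 6 in both knockout lines against wt was even along the chromosome or local. Chromosome 6 was thus chosen by measured values, the read counts of Stat5a-/- and Stat5b-/- against wt, and these comparisons are given as descriptions, with no test drawn on. The direct comparison of Stat5b-/- with Stat5a-/- was tested.

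The libraries came from bone marrow cells of C57BL/6N mice that had been transformed with BCR/ABLp185+. The genotypes were wt, Stat5a-/- and Stat5b-/-, each represented by 1 line, and all 3 lines carried the oncogene. Each line had 3 technical replicates, so a test on these libraries compares 3 lines and measures the spread between preparations, not between independent lines of a genotype. The deposited free-text description of the knockout samples reads as wt, whereas their titles and genotype labels give the knockouts, and the titles were followed.

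BCR/ABL is a fused tyrosine kinase that keeps STAT5 active in leukemic cells. STAT5A and STAT5B are closely related transcription factors that bind DNA as dimers, typically at the palindrome TTCNNNGAA. Chromosome 6 carries the immunoglobulin kappa and T-cell receptor beta loci, the cluster of natural killer cell receptor genes and genes of the cell cycle such as Ccnd2, which encodes cyclin D2. Genes that lie next to each other in a window mostly have unrelated functions, so a window median describes a region and not a pathway.

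Library totals lay between 11948136 and 19016396 counted reads, of which between 438607 and 726661 fell in chromosome 6 windows. Values are normalized CPM, which are reads scaled to a common library total with edgeR's TMM factors. The level of Stat5a was 12.4 ± 0.849 normalized CPM (SD, n = 3) in Stat5a-/-, 83.2 ± 10.3 in Stat5b-/- and 43.5 ± 6.6 in wt libraries. The level of Stat5b was 63.1 ± 7.53 in Stat5b-/-, 141 ± 14.3 in Stat5a-/- and 106 ± 2.503 in wt libraries, so that reads on the targeted gene were lower but present. The summed level of 10 markers of the B lineage, none on chromosome 6, ranged from 6431 to 7087 normalized CPM in wt, from 8925 to 9617 in Stat5a-/- and from 7759 to 8869 in Stat5b-/- libraries. They were thus high in every library and higher in both knockout lines than in wt, and their part in the differences from wt was not tested. Of 7 myeloid markers S100a8, S100a9, Elane and Mpo had no more than 3 reads in any library, as did Hbb-bs, an erythroid marker. The summed level of the 7 ranged from 3.96 to 6.07 normalized CPM in wt, from 4.82 to 6.22 in Stat5a-/- and from 9.07 to 10.5 in Stat5b-/- libraries, which lay above the others, and its part in the differences of Stat5b-/- was not tested. The summed level of 16 T-cell markers, 5 of them on chromosome 6, ranged from 871 to 1176 in wt, from 1493 to 1770 in Stat5a-/- and from 1921 to 2712 in Stat5b-/- libraries.

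The difference from wt was local. In both knockout lines the windows between 80 and 110 Mb lay above wt, while the rest of the chromosome lay near it. The stretch from 80 to 110 Mb was picked after block medians had been seen, and it is described against wt without a test. It held 58 windows with genes, of which 37 were tested, and 567 genes, of which 138 were tested. To show its borders, the promoters of the nearest gene on each side of each border are printed, among tested genes with a mean of at least 100 reads a library and a RefSeq promoter (GRCm38.p6) that begins within 1000 bases of the deposited start. Each sequence is the 250 bases before the RefSeq start, 5′ to 3′ along the gene. That start lies 236 bases inside the deposited gene for Snrpg, 123 for Suclg1 and 16 for Rad18. Their sequences thus run past the deposited start. The fifth promoter, of Snrpg, was added because it belongs to the most-read gene that met the same rule, lies in the stretch and has TTCNNNGAA in its promoter. Capitals mark that match, which lies after the deposited start of Snrpg. Zfp638 had more reads and a match, but its listed promoter lies farther than 1000 bases from the deposited start.
Suclg1 (chr6:73248255-73248504, + strand): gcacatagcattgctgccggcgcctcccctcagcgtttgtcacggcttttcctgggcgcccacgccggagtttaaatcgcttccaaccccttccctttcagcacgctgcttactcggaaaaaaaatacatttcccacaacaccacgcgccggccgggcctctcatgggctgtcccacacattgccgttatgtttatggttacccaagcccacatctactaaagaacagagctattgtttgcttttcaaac
Hk2 (chr6:82774455-82774704, - strand): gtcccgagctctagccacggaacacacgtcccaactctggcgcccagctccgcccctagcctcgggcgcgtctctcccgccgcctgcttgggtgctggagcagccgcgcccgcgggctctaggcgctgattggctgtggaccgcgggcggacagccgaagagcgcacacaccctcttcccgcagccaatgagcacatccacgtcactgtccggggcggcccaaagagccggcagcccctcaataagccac
Edem1 (chr6:108828391-108828640, + strand): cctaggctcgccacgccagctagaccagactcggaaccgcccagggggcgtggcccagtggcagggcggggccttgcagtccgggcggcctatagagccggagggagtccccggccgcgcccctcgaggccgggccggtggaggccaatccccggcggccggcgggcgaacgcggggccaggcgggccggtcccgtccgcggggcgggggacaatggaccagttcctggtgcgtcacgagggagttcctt
Rad18 (chr6:112696671-112696920, - strand): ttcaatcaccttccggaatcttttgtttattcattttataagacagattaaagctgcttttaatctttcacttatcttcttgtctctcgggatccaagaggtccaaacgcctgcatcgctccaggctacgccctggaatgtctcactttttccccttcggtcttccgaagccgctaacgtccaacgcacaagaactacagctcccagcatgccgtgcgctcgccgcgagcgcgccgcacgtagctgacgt
Snrpg (chr6:86371290-86371539, + strand): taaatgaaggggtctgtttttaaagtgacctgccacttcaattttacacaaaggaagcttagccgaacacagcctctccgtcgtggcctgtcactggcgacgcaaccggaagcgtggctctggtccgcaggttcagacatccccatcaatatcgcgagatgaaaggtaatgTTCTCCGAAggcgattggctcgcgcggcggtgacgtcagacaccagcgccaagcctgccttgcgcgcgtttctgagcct
Suclg1, a subunit of the mitochondrial succinyl-CoA ligase, lies before the stretch, and Rad18, a ubiquitin ligase of DNA damage tolerance, lies after it. The tested genes Gm6210, Gm5311 and Gm20594 lie nearer to 80 Mb than Suclg1, and Gm15519 and Gm5578 nearer to 110 Mb than Rad18, but they did not meet this rule. Inside the stretch, Gcfc2, Mrpl19, Gm31861 and Pole4 lie nearer to 80 Mb than Hk2, and Gm6749 nearer to 110 Mb than Edem1. They did not meet the rule either, although Mrpl19 and Pole4 had means of 696 and 582 reads. Hk2 (hexokinase 2) and Edem1, which takes part in the degradation of misfolded proteins of the endoplasmic reticulum, lie inside. TTCNNNGAA, which reads the same on both strands, was not found in the windows shown for Suclg1, Hk2, Edem1 and Rad18. It was found in the promoters of 11 of the 91 tested genes of the stretch that had one (12.1%), of 37 of 376 in the rest of chromosome 6 (9.84%) and of 2197 of 27025 genes with a promoter in the genome, expressed or not (8.13%). A match is a run of letters and was not tested as a binding site.

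Summed over the 80 to 110 Mb windows, the wt libraries had 5675, 5461 and 5541 normalized CPM. Those of Stat5a-/- had 9546, 9475 and 9852, and those of Stat5b-/- had 9725, 9664 and 9031. Every knockout library thus lay above every wt library, and the knockout lines overlapped each other. The mean was 9624 ± 200.2 in Stat5a-/- (SD, n = 3) and 9473 ± 385 in Stat5b-/-, which is 1.73 times and 1.70 times the wt mean of 5559 ± 108. The level in Stat5b-/- was 0.984 times that in Stat5a-/- (exact permutation test, two-sided, p = 0.7, where 3 against 3 libraries cannot go below 0.1). Over single libraries this ratio ran from 0.917 to 1.03, so a difference of a few percent between the knockout lines could not be seen here.

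In the rest of chromosome 6 the summed level was 29837 ± 867 normalized CPM in Stat5a-/- (SD, n = 3) and 31190 ± 559 in Stat5b-/-. These are 0.949 and 0.992 times the wt level of 31434 ± 132, and the Stat5b-/- level was 1.05 times that of Stat5a-/- (exact permutation test, two-sided, p = 0.1, the smallest possible). Over the whole chromosome the level was 39462 ± 669 in Stat5a-/-, 40663 ± 288 in Stat5b-/- and 36994 ± 205 in wt. As a share of all counted reads, without TMM factors, chromosome 6 held 3.67% to 3.80% in Stat5a-/- and 3.77% to 3.84% in wt libraries. In Stat5b-/- libraries it held 4.05% to 4.30%. On that scale Stat5a-/- overlapped wt over the whole chromosome. The stretch made up 24.4% of the chromosome 6 level in Stat5a-/-, 23.3% in Stat5b-/- and 15.03% in wt. Its share lay between 14.9% and 15.3% in wt libraries and between 22.2% and 25.4% in knockout libraries.

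**Figure D1:**
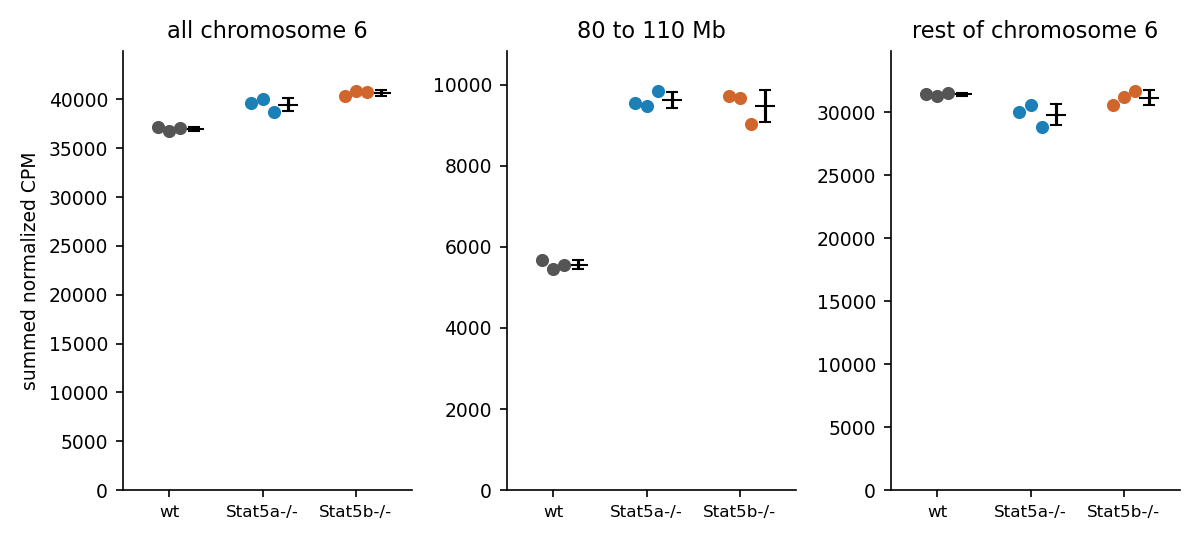
Summed normalized CPM (y axis from 0, with a scale of its own in each panel) over all chromosome 6 windows, the windows from 80 to 110 Mb and the rest, with 1 point a library and the mean with its SD beside it (n = 3). In the middle panel the knockout libraries sit between 9031 and 9852 and the wt libraries between 5461 and 5675, while in the right panel all 9 libraries lie between 28883 and 31731.

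The median window gave the same contrast. For each library the log2 ratio of each tested window to the wt mean was taken, and its median over the stretch was 0.65 ± 0.04 in Stat5a-/- (SD, n = 3) and 0.69 ± 0.01 in Stat5b-/- libraries. In the rest of chromosome 6 it was -0.09 ± 0.10 and 0.02 ± 0.08, and over the other chromosomes it was -0.03 ± 0.05 and -0.03 ± 0.03. The fitted log2 fold changes of the 184 windows had a median of 0.00 in Stat5a-/- and 0.15 in Stat5b-/- against wt. In the stretch the fitted median was 0.64 in Stat5a-/- and 0.70 in Stat5b-/-, and in the remaining 147 windows it was -0.08 and 0.06. The part before 80 Mb and the part after 110 Mb were alike in this, with medians of -0.07 and -0.10 in Stat5a-/- and 0.07 and 0.04 in Stat5b-/-.

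The windows of chromosome 6 were widely spread. The interquartile range of the window log2 fold changes was 0.64 in Stat5a-/- and 0.81 in Stat5b-/- against wt, the widest of the 20 chromosomes in each comparison. Within the stretch alone it was 0.36 in each. Consecutive windows above or below 0 ran up to 24 long in Stat5a-/- and 15 long in Stat5b-/-.

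**Figure D2:**
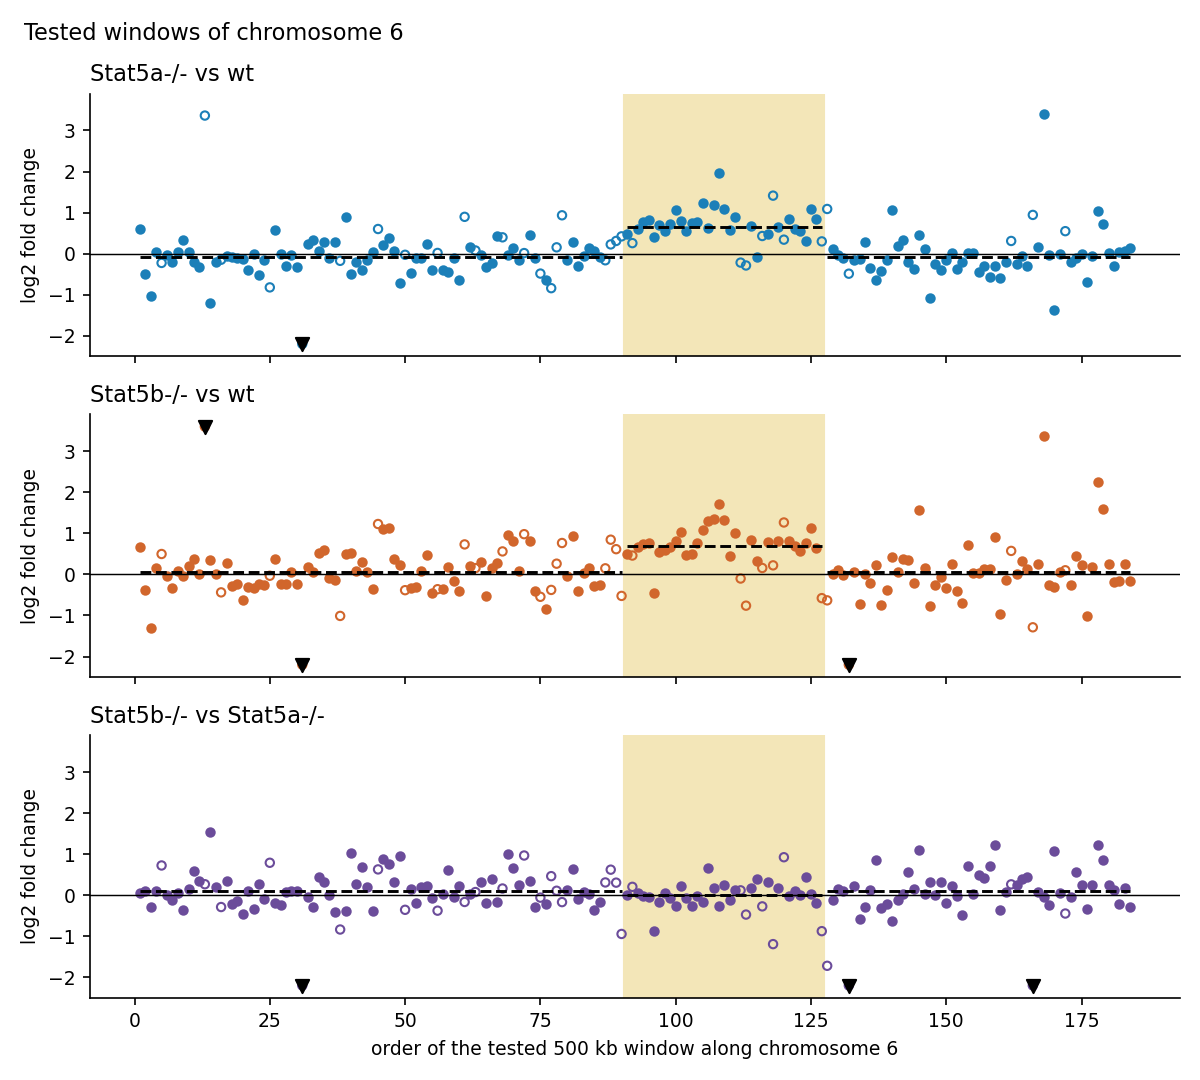
Log2 fold change of each tested 500 kb window (y axis) in its order along chromosome 6 (x axis, 184 windows), for each knockout line against wt and for Stat5b-/- against Stat5a-/-. Filled points have a mean of at least 100 reads a library, open points fewer, black triangles mark values beyond the axis, the shaded band is 80 to 110 Mb, and dashed lines are the medians inside and outside it, 0.64 and -0.08 in the top panel and 0.70 and 0.06 in the middle one.

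Cut into 10 Mb blocks, chromosome 6 gave 15 block medians. In Stat5a-/- against wt the blocks starting at 80, 90 and 100 Mb had medians of 0.71, 0.64 and 0.57 on the log2 scale. The other 12 blocks lay between -0.23 and 0.09. In Stat5b-/- the same 3 blocks had medians of 0.66, 0.81 and 0.68, and the other 12 lay between -0.25 and 0.23. Of the 259 blocks of the genome with at least 5 tested windows, these ranked 1, 3 and 4 in Stat5a-/- and 4, 2 and 3 in Stat5b-/-. The highest block elsewhere was at 30 to 40 Mb of chromosome 17 in Stat5a-/- (0.69) and at 0 to 10 Mb of chromosome 10 in Stat5b-/- (1.04). Regional differences from wt were thus not limited to chromosome 6.

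Single libraries showed the blocks as clearly as the means. In the block from 80 Mb the medians were 0.69, 0.66 and 0.74 in the Stat5a-/- libraries and 0.59, 0.72 and 0.63 in the Stat5b-/- libraries. In the block from 90 Mb they were 0.62, 0.71 and 0.60 in Stat5a-/- and 0.78, 0.68 and 0.81 in Stat5b-/-. In the block from 100 Mb, with 6 tested windows, they were 0.63, 0.68 and 0.43 in Stat5a-/- and 0.63, 0.58 and 0.74 in Stat5b-/-. The wt libraries stayed between -0.08 and 0.08 in these blocks, so the groups did not overlap. In the other 12 blocks the knockout libraries ranged from -0.45 to 0.49.

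**Figure D3:**
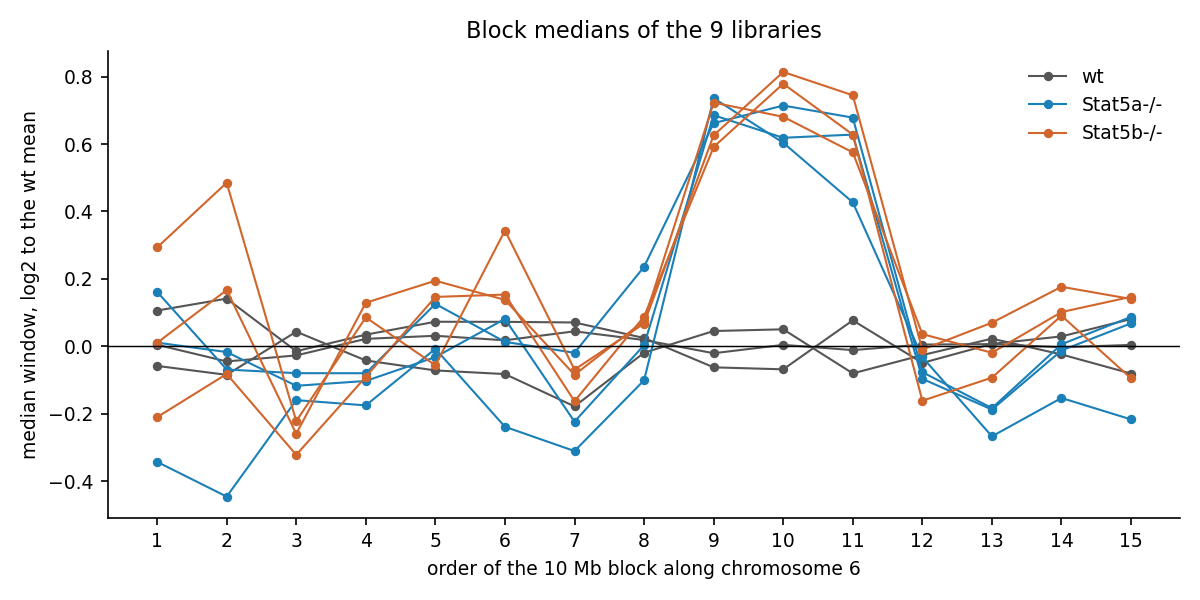
Median log2 ratio of the tested windows to the wt mean (y axis) in each 10 Mb block of chromosome 6, in order (x axis), with 1 line for each of the 9 libraries. All 6 knockout libraries rise to between 0.43 and 0.81 in the ninth to eleventh block, and the wt libraries stay between -0.08 and 0.08 there.

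The borders fell in gene-poor regions and could be placed only roughly. Before the stretch, the Suclg1 window (from 73000001) and the Gm6210 window (from 75000001) were the last with at least 100 reads, with log2 fold changes of 0.06 and -0.08 in Stat5a-/- and -0.29 and -0.26 in Stat5b-/-. The next such window, named after Mrpl19 (from 81500001), which encodes a mitochondrial ribosomal protein, had 40.5, 45.4 and 42.0 normalized CPM in wt, 63.0, 62.8 and 52.4 in Stat5a-/- and 54.3, 60.2 and 65.8 in Stat5b-/- libraries. All knockout libraries lay above all wt libraries in it, and its log2 fold change was 0.48 in Stat5a-/- and 0.49 in Stat5b-/-.

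At the far end, the Arl8b window (from 108500001), named after a small GTPase of lysosome movement, had 205, 232 and 228 normalized CPM in wt, 414, 413 and 366 in Stat5a-/- and 357, 329 and 361 in Stat5b-/- libraries. The knockout lines lay above wt by 0.84 and 0.65 on the log2 scale. Edem1, at 108828641, was the last well-read gene of the stretch, with log2 fold changes of 0.93 in Stat5a-/- and 0.97 in Stat5b-/-. The next window with at least 100 reads, the Rad18 window (from 112500001), had 74.5, 87.6 and 82.0 in wt, 94.2, 88.3 and 81.4 in Stat5a-/- and 72.8, 80.6 and 92.1 in Stat5b-/- libraries. Its groups overlapped, and its log2 fold changes were 0.11 and 0.01.

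Tested windows nearer to the borders on the outside had few reads, and some of them stood apart from wt in 1 line. The Gm5576 and Gm5311 windows (from 78000001 and 79000001), with means of 9.56 and 30.6 reads, had every Stat5b-/- library above wt, with log2 fold changes of 0.85 and 0.61, while Stat5a-/- overlapped wt at 0.22 and 0.31. The Gm20594 window (from 79500001) overlapped wt in both lines. The Gm44336 window (from 112000001), with a mean of 8.56 reads, had every Stat5a-/- library above wt, at 1.09, and overlapping Stat5b-/- libraries at -0.63. The borders therefore cannot be set more closely from these reads.

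Of the 37 tested windows of the stretch, 30 had a mean of at least 100 reads, and 29 of these lay above 0 in Stat5a-/- and 29 in Stat5b-/-. In the stretch 28 windows of 37 (75.7%) had every Stat5a-/- library above every wt library, against 24.6% of all tested windows, and 30 (81.1%) had every Stat5b-/- library above wt, against 26.0%. In the rest of chromosome 6 the same held for 23 of 147 (15.6%) and 44 of 147 (29.9%). At an adjusted p under 0.05, 14 of these 147 were higher and 34 lower in Stat5a-/-, or 9.52% and 23.1%. Of all tested windows it was 19.5% and 19.7%. In Stat5b-/- 39 were higher and 30 lower (26.5% and 20.4%, against 22.7% and 23.4%). These counts come from the comparisons that chose the chromosome, and nothing is read from them.

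Not all windows of the stretch followed. In 9 of the 37 the Stat5a-/- libraries overlapped wt, and in 2, those of Gm7507 and Gm5313, every Stat5b-/- library lay below wt. The Gm5313 window, with a mean of 66.9 reads, had 6.61, 4.30 and 5.88 normalized CPM in wt, 5.03, 4.002 and 4.59 in Stat5a-/- and 3.26, 3.75 and 2.80 in Stat5b-/- libraries, with log2 fold changes of -0.29 and -0.76. The Suclg2 window, named after another succinyl-CoA ligase subunit, had 24.1, 25.7 and 24.9 normalized CPM in wt and 23.6, 25.8 and 21.3 in Stat5a-/- libraries, which overlapped, and 26.9, 31.8 and 34.7 in Stat5b-/- libraries. The Gm7507 window had 16.4, 14.0 and 16.95 in wt, 16.8, 22.4 and 23.8 in Stat5a-/- and 11.7, 12.6 and 9.99 in Stat5b-/- libraries, so that Stat5b-/- lay below wt there, by 0.46 on the log2 scale, which turned to 0.066 above wt without the window's most-read gene. The Txnrd3 window, named after a thioredoxin reductase, differed between the knockout lines, by 0.67 on the log2 scale in favour of Stat5b-/- (edgeR quasi-likelihood test, adjusted p = 4.18e-04). The Gm5313, Suclg2 and Txnrd3 windows were picked after their values were seen.

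The genes of the stretch are described next. Of its 28 genes with a mean of at least 1000 reads, 28 lay above 0 in each knockout line against wt, with medians of 0.78 in Stat5a-/- and 0.73 in Stat5b-/-. Over the 115 such genes of the rest of chromosome 6 the medians were -0.10 and 0.03. Of those 28 genes, 27 had every Stat5a-/- library and 24 every Stat5b-/- library above wt, against 24.5% and 26.3% of all tested genes. Over all 138 tested genes of the stretch, 125 lay above 0 in Stat5a-/- and 119 in Stat5b-/-. Genes pass a limit on mean reads more easily where they are high: of the 28, only 24 had a mean of at least 1000 reads in wt, while Zfp638, Tia1, Eefsec and Iqsec1 reached it through the knockout libraries. These counts also come from the comparisons that chose the chromosome, and nothing is read from them.

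The genes had varied functions. Pcbp1, which encodes an RNA-binding protein, had 523, 391 and 435 normalized CPM in wt, 893, 896 and 1111 in Stat5a-/- and 844, 775 and 577 in Stat5b-/- libraries. Nup210, a protein of the nuclear pore, had 344, 267 and 310.0 in wt, 657, 626 and 848 in Stat5a-/- and 1082, 899 and 667 in Stat5b-/- libraries. In both genes every knockout library lay above every wt library, although the knockout libraries themselves were spread. Foxp1, a transcription factor needed for early B-cell development, had 396, 399 and 400 in wt, 611, 642 and 605 in Stat5a-/- and 690, 759 and 657 in Stat5b-/- libraries. Mcm2, a subunit of the replicative helicase, had 311, 272 and 280.0 in wt, 446, 414 and 499 in Stat5a-/- and 472, 501 and 423 in Stat5b-/- libraries. Tet3, an enzyme that oxidizes methylated cytosine, had log2 fold changes of 0.99 in Stat5a-/- and 1.18 in Stat5b-/-. The smallest differences among the 28 were those of Mthfd2, an enzyme of mitochondrial folate metabolism, with 0.31 and 0.047, and in Stat5b-/- also those of Smyd5 with 0.24 and Slc6a6, a taurine transporter, with 0.26.

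**Figure D4:**
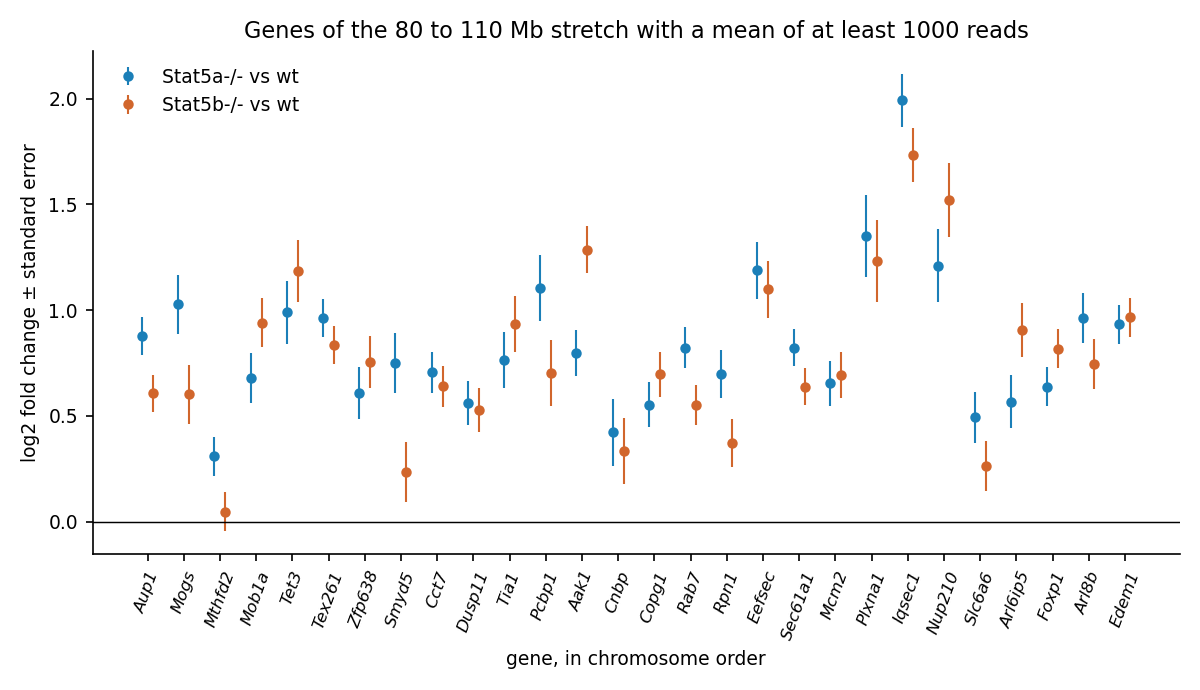
Log2 fold change with its standard error (y axis) of the 28 genes of the 80 to 110 Mb stretch with a mean of at least 1000 reads, in chromosome order (x axis), for Stat5a-/- and Stat5b-/- against wt. All points lie above 0, from 0.31 (Mthfd2) to 1.99 (Iqsec1) in Stat5a-/- and from 0.047 to 1.73 in Stat5b-/-.

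Properties of the genes were compared as well. The tested genes of the stretch had a median GC content of 49.4%, against 47.9% in the rest of chromosome 6 and 49.7% on other chromosomes. Their median exon length was 4279 bases, against 3707 and 3622. In wt the median gene of the stretch had 11.8 normalized CPM and that of the rest of chromosome 6 had 12.8, against 20.6 on other chromosomes. With an offset for GC content, chosen after seeing the data, the fitted median of the stretch was 0.64 in Stat5a-/- and 0.71 in Stat5b-/-, and that of the rest -0.0090 and 0.09.

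The counts of chromosome 6 past the call limits against wt are given with their background, and since these comparisons chose the chromosome nothing is read from them. At an adjusted p under 0.05, 42 of the 184 windows were higher and 34 lower in Stat5a-/- (22.8% and 18.5%, against 19.5% and 19.7% of all tested windows), and 69 and 32 in Stat5b-/- (37.5% and 17.4%, against 22.7% and 23.4%). With a fold change above 2 as well, 11 were higher and 5 lower in Stat5a-/- (5.98% and 2.72%, against 4.14% and 4.66%) and 17 and 5 in Stat5b-/- (9.24% and 2.72%, against 5.89% and 4.93%). At an adjusted p under 0.05 alone, 173 of the 690 tested genes were higher and 102 lower in Stat5a-/-. These are 25.1% and 14.8%, against 19.1% and 16.9% of all tested genes. In Stat5b-/- 248 were higher and 126 lower (35.9% and 18.3%, against 23.4% and 22.7%). With the fold limit as well, the gene counts were 68 and 43 in Stat5a-/- (9.86% and 6.23%, against 7.58% and 6.52%). In Stat5b-/- they were 120 and 54 (17.4% and 7.83%, against 10.3% and 8.54%).

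Between the knockout lines the windows of chromosome 6 were tested directly. Of the 184 windows, edgeR's quasi-likelihood test called 36 higher in Stat5b-/- and 18 lower (adjusted p under 0.05, Benjamini-Hochberg), 19.6% and 9.78%, against 18.5% and 18.4% of all tested windows. Other processing moved the counts for chromosome 6 and for all windows together. Scaled by library totals alone, 60 were higher and 13 lower (32.6% and 7.07%, against 28.6% and 12.7% of all tested windows under that scaling). With DESeq2 40 were higher and 28 lower (21.7% and 15.2%, against 20.5% and 20.3%), and with the GC offset 54 and 31 (29.3% and 16.8%, against 27.2% and 23.7%). In the stretch 4 were higher and 3 lower of 37, or 10.8% and 8.11%. In the rest of the chromosome 32 were higher and 15 lower of 147. With a fold change above 2 as well, 0 were higher and 1 lower in the stretch and 6 and 3 in the rest, against 3.42% and 3.17% of all tested windows. Of the 690 tested genes of chromosome 6, 142 were higher and 86 lower (20.6% and 12.5%, against 16.4% and 17.6%), and 41 were higher and 38 lower with the fold limit as well (5.94% and 5.51%), against 4.75% and 6.64% of all tested genes, and 4 and 7 of these lay in the stretch. The median window log2 fold change was 0.02 in the stretch and 0.10 in the rest, and the 30 well-read windows of the stretch ran from -0.87 (Gm7507) to 0.67 (Txnrd3).

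Of the 5 windows with the most reads, 1 lay in the stretch. This was the Aup1 window (from 83000001), named after a protein of lipid droplets, which had 766, 720.5 and 758 normalized CPM in wt, 1262, 1243 and 1297 in Stat5a-/- and 1277, 1242 and 1202 in Stat5b-/- libraries. It lay above wt by 0.76 and 0.73 on the log2 scale, with a difference of -0.03 from Stat5a-/- to Stat5b-/- (standard error 0.06, edgeR adjusted p = 0.721). The windows of Arhgdib and Ncapd2, a condensin subunit, had log2 fold changes of 0.16 and 0.03 in Stat5a-/- and 0.24 and 0.26 in Stat5b-/-. Without Arhgdib itself its window was at -0.18 in Stat5b-/-, and with the GC offset the Ncapd2 window was at -0.14 in Stat5a-/-. The Cdca3 window had -0.16 and -0.34. The Ybx3 window, named after a cold-shock domain protein, had -0.59 and -0.96, the lowest of these 5, and -0.59 became 0.049 without Ybx3 itself.

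The highest windows against wt lay mostly in the stretch for Stat5a-/-. Outside it, the Eps8 window (from 137000001), named after an adaptor of receptor tyrosine kinases and the actin cytoskeleton, had the largest difference among well-read windows. It had 4.69, 3.79 and 3.61 normalized CPM in wt, 43.4, 42.2 and 41.8 in Stat5a-/- and 37.3, 48.5 and 38.6 in Stat5b-/- libraries, and 99.3% of its reads came from Eps8. The knockout libraries lay far above wt and overlapped each other, with log2 fold changes of 3.40 and 3.37. Eps8 had only 71, 71 and 61 reads in the wt libraries, and between 469 and 710 in the knockout libraries. The Eps8 window thus passed the limit on mean reads only through the knockout libraries. Its rank among well-read windows rests on a limit that the difference itself helped it pass. In the stretch, the Iqsec1 window (from 90500001), named after an exchange factor of ARF GTPases, had 43.6, 38.3 and 40.2 in wt, 138, 161 and 176 in Stat5a-/- and 148, 135 and 115 in Stat5b-/- libraries. The Plxna1, Zxdc and Itpr1 windows of the stretch had log2 fold changes from 1.10 to 1.24 in Stat5a-/- and from 1.08 to 1.36 in Stat5b-/-. In Stat5b-/- the windows next to Eps8 and Iqsec1 among the 5 highest lay outside the stretch: Bhlhe41 at 2.26, Itpr2, named after a calcium channel of the endoplasmic reticulum, at 1.58 and Tuba8 at 1.56, with 1.04, 0.72 and 0.46 in Stat5a-/-. The Itpr2 window had 41.7, 47.5 and 45.2 normalized CPM in wt, 73.9, 72.0 and 74.98 in Stat5a-/- and 128, 139 and 137 in Stat5b-/- libraries, and its groups did not overlap.

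The lowest windows lay outside the stretch. The Plekha5 window (from 140000001) had 37.3, 35.7 and 37.7 normalized CPM in wt, 16.1, 12.9 and 13.4 in Stat5a-/- and 30.4, 30.3 and 28.6 in Stat5b-/- libraries. The window of Apobec1, a cytidine deaminase that edits RNA, had log2 fold changes of -1.08 in Stat5a-/- and -0.76 in Stat5b-/-. In the Bcat1 window (from 144500001), named after the cytosolic branched-chain amino acid transaminase, wt had 533, 479.5 and 495, Stat5a-/- 316, 313 and 306 and Stat5b-/- 243, 262 and 237. These groups did not overlap, and the log2 fold changes were -0.69 and -1.02. The Casd1 window had -1.02 and -1.31, which without Casd1 itself were 0.29 and 0.44.

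Among well-read windows, those that rose most from Stat5a-/- to Stat5b-/- lay outside the stretch, while the one that fell most, the Gm7507 window, lay inside it. The Tes window (from 17000001), named after a protein of focal adhesions, had 53.7, 64.5 and 59.3 normalized CPM in wt, 31.5, 26.0 and 19.9 in Stat5a-/- and 78.4, 63.3 and 83.9 in Stat5b-/- libraries, and Stat5b-/- lay above Stat5a-/- by 1.54 on the log2 scale (edgeR adjusted p = 3.87e-05). The Bhlhe41 window (from 145500001), named after a transcriptional repressor of the circadian clock, rose by 1.22 (adjusted p = 1.56e-04), from 32.6, 28.8 and 39.0 in Stat5a-/- to 94.0, 74.7 and 64.5 in Stat5b-/- libraries. The Tuba8 window rose by 1.11 (adjusted p = 1.10e-05), the Plekha5 window by 1.07 (adjusted p = 2.91e-05) and the Klra13-ps window, with a mean of only 116 reads, by 1.21 (adjusted p = 0.0089). The Ccnd2 window fell by 0.48 (adjusted p = 3.54e-04), from 514, 502 and 473 in Stat5a-/- to 382, 339.8 and 349.6 in Stat5b-/- libraries. Lower as well were the Gm7507 window, at -0.87 on the log2 scale, and outside the stretch the windows of Ankrd26, Tamm41 and Mtpn, from -0.63 to -0.41. In these windows the most-read gene supplied between 55.7% (Klra13-ps) and 99.9% of the reads, and without it the difference of the Tes window was -0.21 and that of the Ccnd2 window 0.068.

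**Figure D5:**
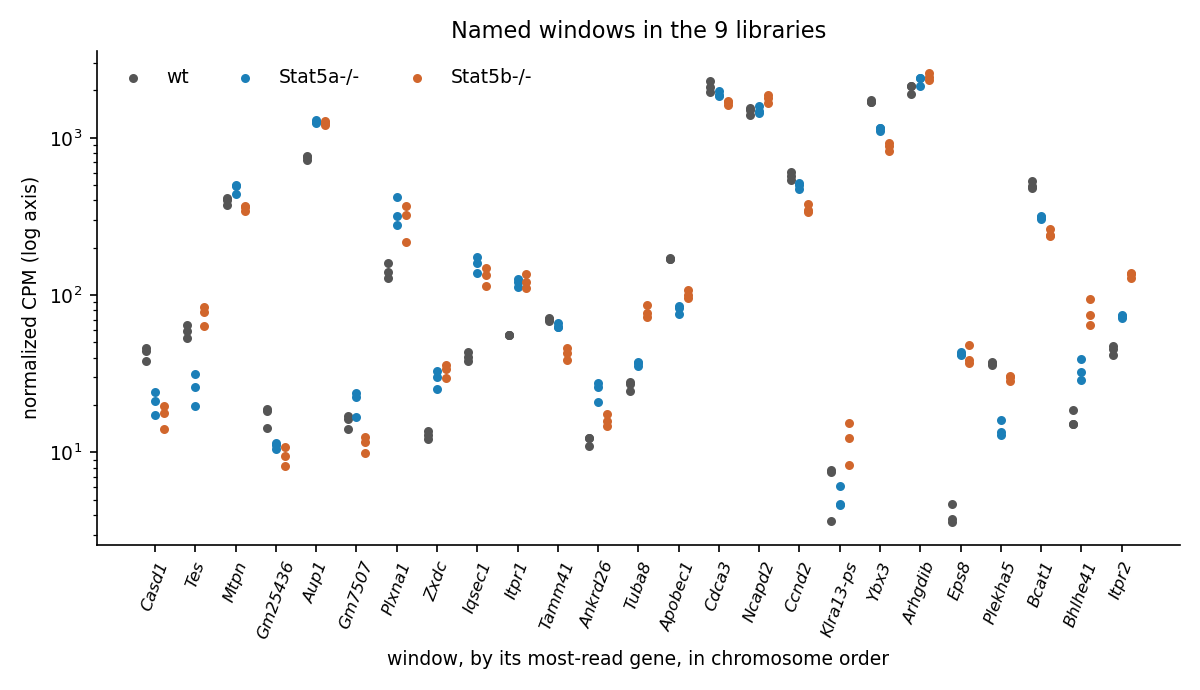
Normalized CPM (y axis, log scale) of 25 named windows in the 9 libraries, 1 point a library, in chromosome order (x axis) and named after their most-read genes. In the Aup1, Plxna1, Zxdc, Iqsec1 and Itpr1 windows, all in the stretch, the knockout libraries overlap each other and lie above wt, and in the Tes and Plekha5 windows the knockout lines lie apart.

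Gene families outside the stretch were compared between the knockout lines. Of 53 genes of the T-cell receptor beta locus, 18 were tested, and against Stat5a-/- the Stat5b-/- line had 9 of these higher and 0 lower (edgeR adjusted p under 0.05, against 16.4% and 17.6% of all tested genes), with a median log2 fold change of 0.86 against 0.02 over all genes. The count rested on single libraries: it was 2 without Stat5a-/- replicate 2, 4 without Stat5a-/- replicate 3 and 3 without Stat5b-/- replicate 1. The summed level of the locus was 227 ± 32.2 normalized CPM in Stat5a-/- (SD, n = 3), 389 ± 82.1 in Stat5b-/- and 177 ± 38.1 in wt. The 16 T-cell markers were at 1653 ± 143 in Stat5a-/-, 2407 ± 425 in Stat5b-/- and 1045 ± 157 in wt, summed in normalized CPM. They include Trbc1 and Trbc2 of this locus, so the sums share reads and are not separate measures. The part of these markers in the differences of this locus was not tested. Of 15 tested natural killer complex genes 6 were higher and 2 lower, with a median of 0.88. The summed markers of natural killer cells were at 26.2 ± 5.56 in Stat5a-/-, 42.0 ± 13.6 in Stat5b-/- and 27.02 ± 5.58 in wt. Of these 3 markers the 2 on chromosome 6, Klrb1c and Klrk1, are also among the 15 genes, so their sum is no separate measure. The 6 higher calls fell to 2 without Stat5a-/- replicate 2 or replicate 3 and to 0 without Stat5b-/- replicate 1, so they rested on single libraries. Klrd1 and Klrk1, receptors of natural killer cells, rose by 0.94 and 0.89, while Klrb1c fell by 1.45.

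Of the 9 Gimap genes, GTPases of lymphocyte survival, 3 were higher in Stat5b-/- and 1 lower (33.3% and 11.1%, against 16.4% and 17.6% of all tested genes, which are also the background of the next counts). Gimap4 rose by 0.88 and Gimap3 fell by 0.63. Of 6 interferon-induced genes 5 were higher, with Usp18, which removes ISG15 from proteins, at 1.91 and Parp12 at 1.44, and 0 were lower. Of the 5 tested genes of the immunoglobulin kappa locus, of 166 on the chromosome, 1 was higher and 2 lower. The Igkc constant region rose by 0.72. The variable segments Igkv3-9 and Igkv3-2 fell by 2.82 and 2.46, on means of only 8.89 and 22 reads a library.

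Among 21 tested genes of signalling and the cell cycle, Stat5b-/- had 5 higher and 3 lower than Stat5a-/- (23.8% and 14.3%, near the 16.4% and 17.6% of all tested genes). The 5 higher fell to 3 without Stat5a-/- replicate 1 or replicate 2 or without Stat5b-/- replicate 1. Ncapd2 rose by 0.56 and Cdkn1b, the cell-cycle inhibitor p27, by 0.54, and Ccnd2 fell by 0.56. The 3 of these genes that lie in the stretch went separate ways: Mcm2 did not pass the test between the knockout lines (0.04, adjusted p = 0.805), Mxd1, a partner of MAX, rose by 0.80 and Bhlhe40, a repressor related to Bhlhe41, fell by 1.30. Against wt, Mcm2 had log2 fold changes of 0.65 and 0.69, Mxd1 0.30 and 1.10, and Bhlhe40 -0.02 and -1.32. Beside the same background, of 5 tested imprinted genes 1 was higher (Pon3, by 0.84) and 0 lower, of 3 tested C-type lectins 1 was higher (Clec12a, by 1.64, a call lost without any 1 of 5 of the 6 knockout libraries), and of 8 tested housekeeping and translation genes 1 was lower (Tpi1, by 0.47 on the log2 scale). No Hoxa gene and no chemosensory receptor gene of chromosome 6 was tested, with summed levels of at most 1.32 and 0.44 normalized CPM in a line.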

How the data were processed

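RNA-seq was measured in 9 libraries of 3 BCR/ABLp185+ mouse cell lines. The authors trimmed 50 bp single-end reads with Trimmomatic, mapped them with STAR to GENCODE M13 (GRCm38), counted exon reads per gene with featureCounts and deposited raw counts of 50686 genes. Strand use in counting was not given in the sources used here, so reads of overlapping antisense genes cannot be told apart, and near-identical genes are uncertain. Samples were grouped by title and genotype label. The total per library sets the precision, and, lacking molecular identifiers, reads may repeat a molecule.

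A gene was placed by its chromosome and smallest start. Symbols came from GENCODE M21 for 50376 genes. Counts were summed in 500 kb windows, normalized with TMM and fitted over all 9 libraries with edgeR 4.0.16 in R 4.3.3 (filterByExpr, glmQLFit, glmQLFTest, Benjamini-Hochberg adjustment over 3308 windows or 13840 genes). A standard error is the size of the log2 fold change divided by the root of F. Genes were called at an adjusted p under 0.05, with a fold change above 2 where stated. Summed levels were compared with exact permutation tests. The fits were tested on simulated counts in which 200 features were changed by 1 on the log2 scale between Stat5b-/- and Stat5a-/-: 194 windows and 180 genes were recovered, with 15 and 9 false calls.

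Windows were named after their most-read gene. Named were the 5 with the most reads, in each comparison with wt the 5 lowest and 5 highest with a mean of at least 100 reads and libraries that did not overlap, and the 5 lowest and 5 highest called between the knockout lines, of which 1 window is not reported here. The windows, gene lists and tests were chosen with earlier results of these data known. The 80 to 110 Mb stretch, its border genes, the genes with at least 1000 reads, the GC offset and the promoters shown were chosen after these data were seen.

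Alternatives were RLE factors, library totals alone, TMM outside chromosome 6, DESeq2 1.42.0, other filters, windows shifted by 250 kb or 1 Mb long, windows without their most-read gene or without immunoglobulin and T-cell receptor segments, only the 2 genotypes compared, each library left out, the replicate number as a block, other call limits and a median over genes.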

Additional observations from a re-analysis of the deposited data

Results flagged for a closer look

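In the Mtpn window (from 35500001), named after myotrophin, the Stat5a-/- libraries lay above wt and the Stat5b-/- libraries below it, with log2 fold changes of 0.27 and -0.13. Stat5b-/- was only just apart from wt: its highest library had 371.2 normalized CPM and the lowest wt library 371.5. The difference between the knockout lines was -0.41 (standard error 0.07, edgeR adjusted p = 0.00124).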

How the results depend on the processing

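The local pattern kept its direction under every alternative run: the median window of the 80 to 110 Mb stretch lay between 0.51 and 0.71 above wt on the log2 scale in Stat5a-/- and between 0.63 and 0.76 in Stat5b-/-, and that of the rest of chromosome 6 between -0.20 and -0.01 and between 0.00 and 0.14. In Stat5a-/- the stretch gave 0.51 with library totals alone, 0.58 without a filter, 0.71 at a mean of at least 100 reads and 0.69 without each window's most-read gene. In Stat5b-/- it gave 0.68 with RLE, 0.71 with DESeq2, 0.63 without a filter, 0.76 at a mean of at least 100 reads, 0.73 with windows shifted by 250 kb, 0.73 with only the 2 genotypes compared and 0.75 over genes. Library totals alone gave -0.12 for chromosome 6 and -0.20 for its rest in Stat5a-/-, with 53 windows lower, and 0.18, 0.13 (stretch) and 0.21 (rest) between the knockout lines, with 60 higher. Without each window's most-read gene, chromosome 6 in Stat5b-/- was at 0.26 and the stretch between the knockout lines at -0.067.

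Windows of 1 Mb gave 25 higher and 21 lower in Stat5a-/-, 39 and 21 in Stat5b-/- and 10 lower between the knockout lines, where there are fewer windows to call. Windows lower in Stat5b-/- than in Stat5a-/- numbered 28 with DESeq2, 29 at an adjusted p under 0.1 and 31 with the GC offset, an alternative chosen after seeing the data, and the cause was not tested. A fold change above 2 left 11 windows higher and 5 lower in Stat5a-/-, 17 and 5 in Stat5b-/- and 6 and 4 between the knockout lines, a stricter rule by construction. Of 690 tested genes, with the backgrounds given above for the comparisons with wt, 68 higher and 43 lower in Stat5a-/-, 120 and 54 in Stat5b-/- and 41 and 38 between the lines became 173 and 102, 248 and 126, and 142 and 86 without the fold limit. With each library left out in turn, the stretch lay between 0.61 and 0.69 in Stat5a-/- and between 0.65 and 0.72 in Stat5b-/-.

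Without their most-read gene, windows changed sign because they then hold other genes: Ccnd2 (0.12), Ybx3 (0.049) and Casd1 (0.29) in Stat5a-/- against wt, Gm7507 (0.066), Ccnd2 (0.19), Arhgdib (-0.18), Tes (-1.37) and Casd1 (0.44) in Stat5b-/- against wt, and Itpr1 (-0.49), Ccnd2 (0.068) and Tes (-0.21) between the knockout lines. With the GC offset the Ncapd2 window in Stat5a-/- was at -0.14, and the cause was not tested.

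Libraries with the same replicate number shared only a number. Over genes, deviations from the line means correlated on average at -0.13 in the 9 same-numbered pairs and at 0.063 in the 18 others, and 0 libraries correlated best with their own number. With the number as a block, the stretch stayed at 0.64 in Stat5a-/- and 0.70 in Stat5b-/-, and the windows called between the knockout lines were 31 higher and 15 lower. At this depth 34 windows without a read and 70 with too few could not be compared.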
